A study of Mus musculus with 16 samples.

Results

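The RNAs of the cell body (CB) fraction were compared between 2 NIH/3T3 mouse fibroblast lines, the Pkp4 cUTR line and its HBB control line. The comparison took the 4 CB libraries labelled HBB and the 4 labelled Pkp4, chosen by their labels alone, which are 8 of the 16 samples, and all 12900 RNAs of the table. The other 8 samples are the protrusion (Ps) libraries of the same lines. They serve here to ask whether a line difference is also seen there, and they enter the estimate of the spread in the fit. Both lines carry a doxycycline-inducible lentiviral construct that encodes human β-globin. In the HBB line the coding sequence is followed by the β-globin 3′UTR, and in the Pkp4 cUTR line (competing UTR) by the 3′UTR of mouse Pkp4, which carries RNAs into protrusions. Both were given doxycycline at 1 μg/ml for 3 days, so the control cells carry the drug and a β-globin RNA too. The cells were starved of serum and plated for 2 h on filters with 3 μm pores, with lysophosphatidic acid in the lower chamber for 1 h, and were fixed in 0.3% paraformaldehyde for 10 min. Cell bodies are what remained on the upper side once the protrusions had been wiped off. Each construct is represented by 1 stably transduced line, so an effect of the construct and a difference between the lines from any other source cannot be told apart. Whether a line is a pool or a clone is not given in the sources used here.

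Pkp4 (plakophilin 4, also called p0071) belongs to the p120-catenin family of armadillo-repeat proteins, which bind cadherins at cell junctions, and its mRNA is one of those that fibroblasts carry to their protrusions with the help of the protein APC. Fibroblasts secrete and remodel the extracellular matrix, contract it through actomyosin, and signal to their neighbours with growth factors, chemokines and vasoactive peptides such as endothelin. Serum-starved fibroblasts largely leave the cell cycle, and genes of DNA replication and mitosis then fall to low levels. The gene lists below follow these functions. They were chosen with earlier results of these data known, so an excess over all RNAs can follow in part from that choice.

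The 8 libraries held 20204097 to 31260831 reads in the listed RNAs, and Pearson correlations between libraries of 1 line were 0.984 to 0.998. Values are log2 CPM (counts per 1000000 reads), a difference is Pkp4 cUTR minus HBB in the limma fit, and a called RNA has an adjusted p under 0.05. Replicates with the same number deviated together (correlations 0.34 to 0.62), and both libraries of replicate 4 stood apart from the other 3 of their line on the first 2 principal components, so many counts are also given with a block for the replicate number or without replicate 4. Fibroblast markers were high in both lines, with Col1a1, Fn1 and Vim at a mean of 12.1 to 13.0 log2 CPM. Their sum over 14 tested markers was 28409 to 33084 CPM in HBB and 27277 to 33418 CPM in Pkp4 cUTR. The 7 tested markers of other cell types summed to 192 to 212 CPM in HBB and 244 to 303 CPM in Pkp4 cUTR, most of it the keratin Krt14. None of the 7 was at 0 reads in any library. In bulk RNA, fewer cells of a type and less RNA per cell cannot be told apart.

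Pkp4 itself had the largest difference among RNAs with a mean above 1 log2 CPM. Its gene lies at chr2:59160850-59355208, plus strand (GRCm38). Its level was 4.46, 4.53, 4.45 and 4.43 log2 CPM in the 4 HBB libraries and 8.82, 9.24, 9.32 and 8.26 log2 CPM in the 4 Pkp4 cUTR libraries. The lines do not overlap, which held for 1883 (14.6%) of all RNAs, the HBB libraries lie close together, and the lowest Pkp4 cUTR library is that of replicate 4. In reads this is 682, 667, 737 and 476 against 13160, 16040, 18898 and 7291. Pkp4 was 21.7-fold higher in Pkp4 cUTR (log2 difference 4.44, SE 0.20, adjusted p = 7.41e-11). The construct holds the Pkp4 3′UTR, and reads from it and from the endogenous mRNA would fall in 1 row and cannot be told apart, so the value checks the labels and is not a measure of endogenous Pkp4. The relatives of Pkp4 were not called. The difference was 0.38 for Pkp1 (adjusted p = 0.144, or 0.00762 with the replicate block), -0.30 for Pkp2, 0.17 for the p120-catenin gene Ctnnd1 and -0.15 for Arvcf. Pkp3, at -0.06, changed sign when single libraries were left out. Of the mouse globins, Hbb-bh1 differed by 0.72 (adjusted p = 0.0901, or 0.0374 with the block), Hbb-bs by -0.22 and Hba-a1 by -0.07, all at under 1 log2 CPM.

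Of the 12900 RNAs, 441 (3.42%) were higher and 716 (5.55%) lower in Pkp4 cUTR cell bodies, 8.97% in all by limma. The typical difference was small, with a median of 0.41 among those higher and -0.50 among those lower, against 0.00 over all RNAs. A change of more than 2-fold was found for 26 RNAs (0.202%) upward and 132 (1.02%) downward, and only 8 and 35 of these had a mean above 1 log2 CPM. With the replicate block 1367 RNAs (10.6%) were higher and 1533 (11.9%) lower, and these held all 1157 RNAs called without it. Without replicate 4 the counts were 258 (2.00%) and 510 (3.95%), with 712 of the 1157 (61.5%) called again. A fit of the 8 cell body libraries alone gave 262 higher and 510 lower. Leaving out HBB replicate 1 gave 266 higher, and leaving out HBB replicate 3 gave 238 higher and 453 lower. Base composition moved with the direction: the median GC content of the exons was 47.8% for the RNAs that were higher, 54.6% for those lower and 50.1% for all. Of the RNAs with a mean above 1 log2 CPM, among the 2002 richest in GC 54 were higher and 241 lower, and among the 2002 poorest 103 were higher and 36 lower. After centring each sample within 10 bins of GC content the counts were 444 higher and 683 lower.

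**Figure D1:**
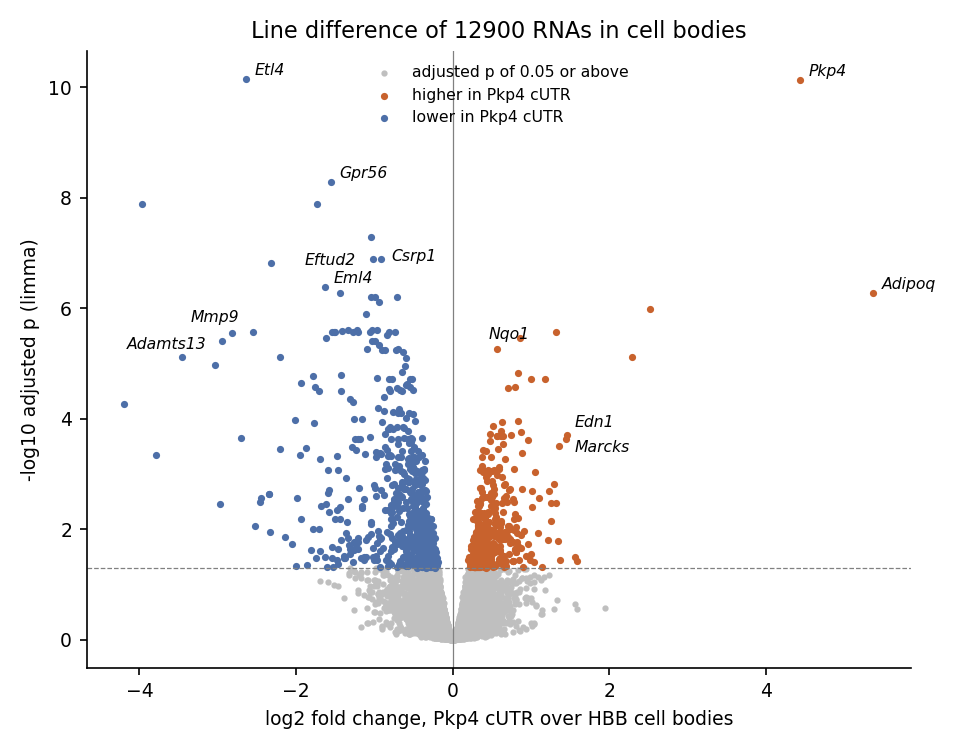
Each point is 1 of the 12900 RNAs, with the log2 fold change of Pkp4 cUTR over HBB cell bodies on the horizontal axis and the negative log10 of limma's adjusted p on the vertical axis, where the dashed line marks 0.05. The 441 orange points are higher and the 716 blue points lower in Pkp4 cUTR, more RNAs lie past 2-fold on the left than on the right, and Pkp4 and Etl4 have the smallest adjusted p (the position of Adipoq depends on the prior count, since all its HBB libraries hold 0 reads).

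Beside Pkp4, the rise was led by Edn1 and Marcks among RNAs with a mean above 1 log2 CPM. Edn1 encodes endothelin-1, a vasoconstrictor peptide that also acts on fibroblasts (chr13:42301476-42307990, plus strand). It was at 1.41, 1.20, 0.50 and 0.60 log2 CPM in HBB and 2.43, 2.70, 2.19 and 2.25 log2 CPM in Pkp4 cUTR. Every Pkp4 cUTR library lay above every HBB library, at 2.74-fold (log2 difference 1.45, SE 0.21, adjusted p = 1.99e-04). Marcks, a membrane-bound substrate of protein kinase C that binds actin and calmodulin (chr10:37133375-37138920, minus strand), was at 0.89, 0.86, -0.14 and 0.46 log2 CPM in HBB and 1.84, 1.76, 1.84 and 2.42 log2 CPM in Pkp4 cUTR. It was 2.73-fold higher (log2 difference 1.45, SE 0.22, adjusted p = 2.34e-04) with no overlap, and replicate 4 of Pkp4 cUTR was its highest library. These are low levels, resting on 82, 66, 47 and 33 reads of Edn1 in the HBB libraries.

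Mmp9, Adamts13 and Etl4 were among the RNAs with a large fall. Mmp9 encodes gelatinase B, a matrix metalloproteinase that cleaves denatured collagen and basement membrane (chr2:164940780-164955850, plus strand). It was at 3.39, 3.31, 4.10 and 3.89 log2 CPM in HBB and 0.02, 0.65, 1.57 and 1.22 log2 CPM in Pkp4 cUTR, 7.03-fold lower (log2 difference -2.81, SE 0.28, adjusted p = 2.77e-06). The Pkp4 cUTR libraries spread over more than 1 log2 unit, but the highest of them still lay below the lowest HBB library. Adamts13, the protease that cuts von Willebrand factor (chr2:26973416-27009628, plus strand), was at 2.25, 2.24, 2.60 and 2.71 log2 CPM in HBB and -0.31, -0.60, -0.33 and -0.82 log2 CPM in Pkp4 cUTR, 7.68-fold lower (log2 difference -2.94, SE 0.30, adjusted p = 3.91e-06). Etl4, also known as Skt and needed for the intervertebral discs (chr2:19909780-20810713, plus strand), was at 4.69, 4.71, 4.81 and 4.38 log2 CPM in HBB and 2.04, 1.90, 2.19 and 1.91 log2 CPM in Pkp4 cUTR. It was 6.24-fold lower (log2 difference -2.64, SE 0.12, adjusted p = 7.10e-11), and the lines stood more than 2 log2 units apart in every library. The folds of Mmp9 and Adamts13 rest on few reads in the Pkp4 cUTR libraries. These were 29, 41, 87 and 55 for Mmp9 and 23, 17, 23 and 13 for Adamts13.

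**Figure D2:**
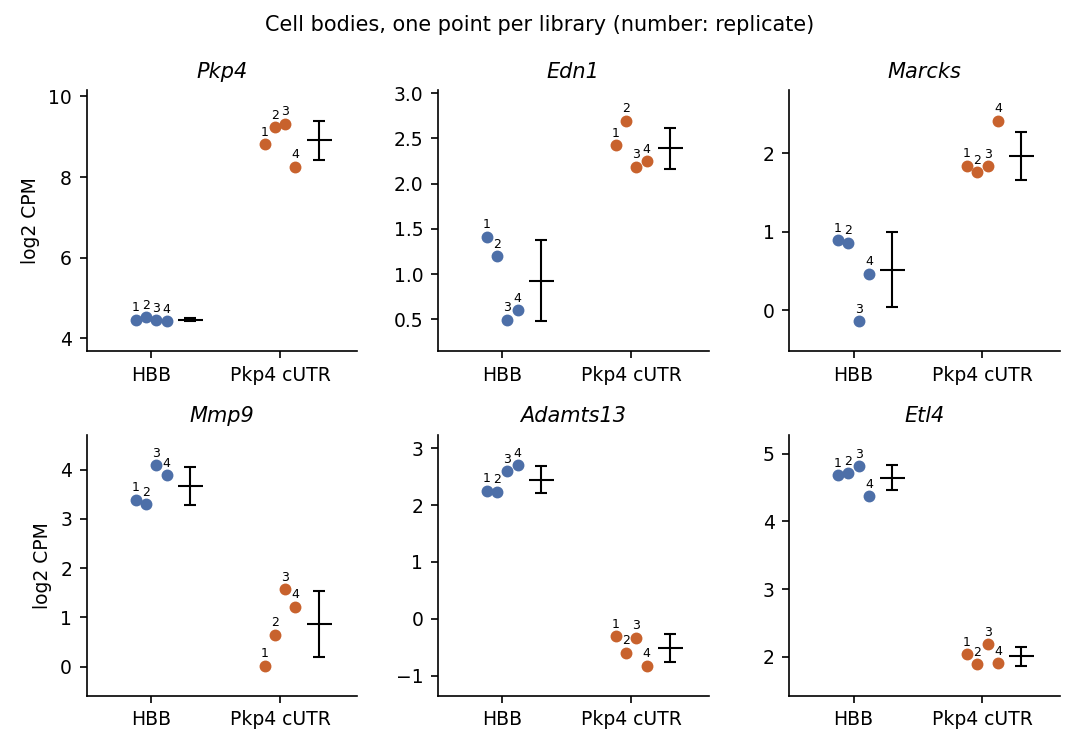
Log2 CPM in cell bodies of Pkp4, Edn1, Marcks, Mmp9, Adamts13 and Etl4, 1 point per library numbered by replicate, with HBB in blue, Pkp4 cUTR in orange, and the mean and SD of 4 libraries beside the points. The vertical scale differs between the panels, and in none of them do the lines overlap.

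Adipoq, which encodes the fat cell hormone adiponectin, had 0 reads in all 4 HBB libraries and 29, 27, 15 and 11 reads in the Pkp4 cUTR libraries. No other called RNA was at 0 reads in every library of 1 line. Against a floor of 3 reads over the HBB group it was at least 29.0-fold higher (adjusted p = 5.39e-07). The other adipogenic genes did not follow it: of 8 tested, Cebpd, a transcription factor of early fat cell differentiation, was also higher (0.55), Lpl, which encodes lipoprotein lipase, was lower (-0.65), and the median was -0.10.

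The endothelin system comprises the peptide precursors, the enzymes that cut them and their receptors, and 4 of its members were tested. Edn2, another endothelin, was higher by 0.94 (adjusted p = 0.0301, or 0.127 without replicate 4) at a mean of -0.60 log2 CPM. Ece1, the endothelin-converting enzyme, was lower, at 5.83, 5.78, 5.88 and 5.45 log2 CPM in HBB and 5.10, 5.28, 5.24 and 4.68 log2 CPM in Pkp4 cUTR (log2 difference -0.66, SE 0.11, adjusted p = 8.94e-04). Its relative Ece2 differed by 0.06 (adjusted p = 0.625).

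Among the other RNAs with a large rise were Rftn1 (1.19), a protein of lipid rafts, Sdpr (0.96), the caveolar protein cavin 2, Tacr2 (0.89), a tachykinin receptor, Car6 (1.01), a secreted carbonic anhydrase, and Plet1 (1.00), a surface protein of epithelial progenitors. Others belong to cell division or chromatin: Pbk (1.09), a mitotic kinase, Ube2t (0.91), a ubiquitin-conjugating enzyme of DNA repair, Sapcd2 (0.87), which orients the spindle, and the histone genes Hist1h2bc (1.05) and Hist1h1c (0.85). Among the RNAs with a large fall and a mean above 1 log2 CPM were also Cabp2 (-2.32), a calcium-binding protein, Lbp (-1.73), which binds bacterial lipopolysaccharide, C3 (-1.44), the central complement component, Nrxn2 (-1.62), a synaptic adhesion protein, and Eml4 (-1.62), which binds microtubules. Fut8 (-1.43), the enzyme of core fucosylation, Pcf11 (-1.41), which acts in 3′ end cleavage of pre-mRNA, and Hmha1 (-1.33), a GTPase-activating protein, were lower too. All 18 of these passed the test at an adjusted p of 0.0216 or less. In a limma fit of the 8 cell body libraries alone the adjusted p was 0.0539 for Sapcd2 and 0.0507 for Ube2t. For Sapcd2 it reached 0.0666 with 1 library left out. Pbk, Sapcd2 and Ube2t were not called in protrusions (adjusted p = 0.114, 0.0726 and 0.618 by limma).

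Among abundant RNAs, with a mean above 6 log2 CPM, the clearest difference after Pkp4 was in Gpr56, an adhesion G protein-coupled receptor. Gpr56 was at 9.08, 9.05, 9.27 and 9.10 log2 CPM in HBB and 7.42, 7.55, 7.84 and 7.47 log2 CPM in Pkp4 cUTR (log2 difference -1.55, SE 0.09, adjusted p = 5.21e-09). Eftud2, a GTPase of the spliceosome, was at 8.35, 8.37, 8.56 and 8.48 log2 CPM in HBB and 7.39, 7.45, 7.56 and 7.31 log2 CPM in Pkp4 cUTR (log2 difference -1.01, SE 0.08, adjusted p = 1.30e-07). Both were lower in each Pkp4 cUTR library than in any HBB library. Csrp1 (-0.91), a LIM protein of actin bundles, Fam43a (-1.04) and Maoa (-0.71), a monoamine oxidase, were lower as well. In the other direction stood Nqo1 (0.56), a quinone reductase, Krt14 (0.61), Lurap1l (0.42) and Glud1 (0.39), glutamate dehydrogenase. The level of Nqo1 was 7.06 ± 0.05 (SD, n = 4) in HBB and 7.62 ± 0.03 (SD, n = 4) in Pkp4 cUTR, with no overlap.

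Many genes of the cell cycle were higher in Pkp4 cUTR. Of 39 tested, 15 (38.5%) were higher and 0 lower by limma, against 3.42% higher over all RNAs, and the median difference was 0.51 against 0.00 over all RNAs. The call covered DNA replication and mitosis alike. Mcm4, a subunit of the replicative helicase, was at 2.23, 2.24, 2.33 and 1.95 log2 CPM in HBB and 3.04, 2.83, 3.23 and 3.18 log2 CPM in Pkp4 cUTR (log2 difference 0.87, SE 0.13, adjusted p = 1.74e-04). Rrm2, a subunit of ribonucleotide reductase, was at 1.04, 1.40, 1.36 and 1.40 log2 CPM in HBB and 1.94, 2.09, 2.30 and 2.40 log2 CPM in Pkp4 cUTR (log2 difference 0.88, SE 0.14, adjusted p = 4.13e-04). Mcm6, another helicase subunit, was at 3.91, 3.70, 4.14 and 4.19 log2 CPM in HBB and 4.63, 4.44, 4.87 and 4.94 log2 CPM in Pkp4 cUTR (log2 difference 0.74, SE 0.14, adjusted p = 0.00190). In none of these 3 did the lines overlap, and replicates 3 and 4 of Pkp4 cUTR were the highest for Mcm6. Rrm1, the partner of Rrm2, was higher by 0.49 (adjusted p = 0.00292). For the whole list, the median level of its members relative to their means was -0.29, -0.34, -0.19 and -0.14 in the HBB libraries and -0.03, -0.05, 0.56 and 0.59 in the Pkp4 cUTR libraries. Replicates 1 and 2 of Pkp4 cUTR thus lay just above the highest HBB library and replicates 3 and 4 far above it. The count called was 28 of 39 with the replicate block (against 10.6% of all RNAs), 6 without replicate 4 (against 2.00%) and 13 after GC centring (against 444 of all 12900). It was 6, 7 and 8 without HBB replicates 1, 2 and 3, and 7 and 8 without Pkp4 cUTR replicates 3 and 4. With any 1 library left out the median was 0.40 to 0.64.

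The promoters of these genes are shown because many replication and mitosis genes are known to be driven by E2F, NF-Y and the CHR element. RefSeq promoters (GRCm38.p6, 250 bases before to 50 after the start) were at hand for 9422 of the RNAs, 12028 promoters in all. They were searched on both strands for an E2F motif (TTT, then 2 letters that are each C or G, then CGC), the CHR element (TTTGAA or TTCGAA), the NF-Y motif CCAAT and the AP-1 motif TGACTCA. Of the 13 promoters of called cell cycle genes, 3 (23.1%) held the E2F motif, 7 (53.8%) CHR and 12 (92.3%) CCAAT. The shares over all promoters were 3.94%, 13.8% and 38.3%. Since cell cycle genes are known for these motifs, an excess over all promoters follows from the list and does not bear on the line difference. Of the 21 promoters of cell cycle genes that were not called, 4 held the E2F motif, 10 CHR and 14 CCAAT. The E2F and CHR shares were thus close in called and uncalled genes, and the CCAAT share was higher in called genes. These counts are small, and the differences between them were not tested. Among all RNAs called higher the shares were 6.10%, 20.9% and 42.9%, and among those called lower 2.47%, 9.47% and 37.9%. The AP-1 motif was in 3.86% of all promoters, 4.58% of those of RNAs called higher and 5.90% of those called lower. A match is a description of the sequence and not a site. In the sequences shown here, read 5′ to 3′ on the minus strand, the E2F match is in capitals with 10 bases on each side. Mcm6 holds a match 47 bases and another 106 bases before its start (chr1:128359735-128359762 and chr1:128359794-128359821), and the latter overlaps another match. Cdk1, the mitotic kinase, was named after its values were seen (0.50, adjusted p = 0.0226) and holds one 131 bases before its start (chr10:69353026-69353053).
Mcm6, 47 bases before the start: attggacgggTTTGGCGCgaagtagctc
Mcm6, 106 bases before the start: tatgcttttgGCGCGAAAagtgcgtgcg
Cdk1, 131 bases before the start: ttccgctcccTTTCGCGCtctgcgctcc

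Many genes of the extracellular matrix were lower in Pkp4 cUTR. Over 4 lists together (collagens, other matrix proteins, crosslinking and collagen processing enzymes, and proteases with their inhibitors) 108 RNAs were tested, of which 33 were lower and 0 higher, 30.6% lower against 5.55% over all RNAs. The median difference was -0.20, and 81.5% of the 108 lay below 0. With the replicate block 50 (46.3%) were lower and 6 higher, against 11.9% and 10.6% over all RNAs. Without replicate 4 the counts were 22 (20.4%) and 0, against 3.95% and 2.00% over all RNAs. After GC centring they were 28 and 1, against 683 and 444 of all 12900. With any 1 library left out, 22 to 35 were lower. Without Pkp4 cUTR replicate 4 the median was -0.12, and 71.3% lay below 0.

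Of 19 collagens 7 were lower, with a median of -0.36. Col18a1, the basement membrane collagen whose fragment is endostatin, was at 4.97, 4.91, 5.15 and 4.77 log2 CPM in HBB and 3.72, 3.97, 4.08 and 3.61 log2 CPM in Pkp4 cUTR (log2 difference -1.10, SE 0.10, adjusted p = 1.28e-06). The lines do not overlap in Col18a1. Its gene overlaps Slc19a1, so reads of that gene may be included. Col12a1, which associates with fibrils, was lower, at -0.80 (adjusted p = 1.39e-04). The collagens of type V, which set the width of collagen fibrils, were all called: Col5a3 (-0.65), Col5a2 (-0.55) and Col5a1 (-0.46, adjusted p = 0.0337, or 0.0609 without replicate 4). The chains of the major fibrils were not called, with -0.16 for Col1a1, 0.13 for Col1a2 and -0.13 for Col3a1. The median relative level of the collagens was 0.23, 0.23, 0.19 and -0.03 in HBB and -0.07, -0.05, -0.01 and -0.48 in Pkp4 cUTR, where HBB replicate 4 lies within the range of the other line.

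Of 34 other matrix proteins 13 were lower and 0 higher, with a median of -0.19. Their median relative level was 0.18, 0.14, 0.20 and -0.04 in HBB. It was -0.11, 0.06, -0.08 and -0.35 in Pkp4 cUTR, so HBB replicate 4 lies within the range of the other line. Some are matricellular proteins, which modulate adhesion. Tnc (tenascin C) was at 3.33, 3.50, 3.41 and 2.96 log2 CPM in HBB and 1.93, 2.24, 2.02 and 1.34 log2 CPM in Pkp4 cUTR (log2 difference -1.42, SE 0.18, adjusted p = 3.11e-05). Thbs1 (thrombospondin 1) was at 7.43, 7.37, 7.14 and 6.64 log2 CPM in HBB and 5.77, 6.08, 6.02 and 5.46 log2 CPM in Pkp4 cUTR (log2 difference -1.31, SE 0.17, adjusted p = 4.33e-05). Each Pkp4 cUTR library was below each HBB library for both genes. Thbs2 (-0.97) and the elastic fibre protein Fbln1 (-1.51) were lower as well. Dpt, which binds decorin and is in none of the lists, was lower too (-1.52). Of 18 crosslinking and processing enzymes 5 were lower (0 without replicate 4, and 0 to 4 with any 1 library left out), among them the lysyl oxidases Loxl1 (-0.29) and Loxl3 (-0.30), the lysyl hydroxylase Plod3 (-0.23) and the prolyl hydroxylase P4ha2 (-0.25). Of 37 proteases and inhibitors 8 were lower and 0 higher (14 and 2 with the block, 4 and 0 without replicate 4), and 4 were lower without HBB replicate 1 or Pkp4 cUTR replicate 4, and 5 without Pkp4 cUTR replicate 1 or 2. Beside Mmp9 and Adamts13 these included Mmp19 (-0.40) and Plau (-0.59), the urokinase.

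**Figure D3:**
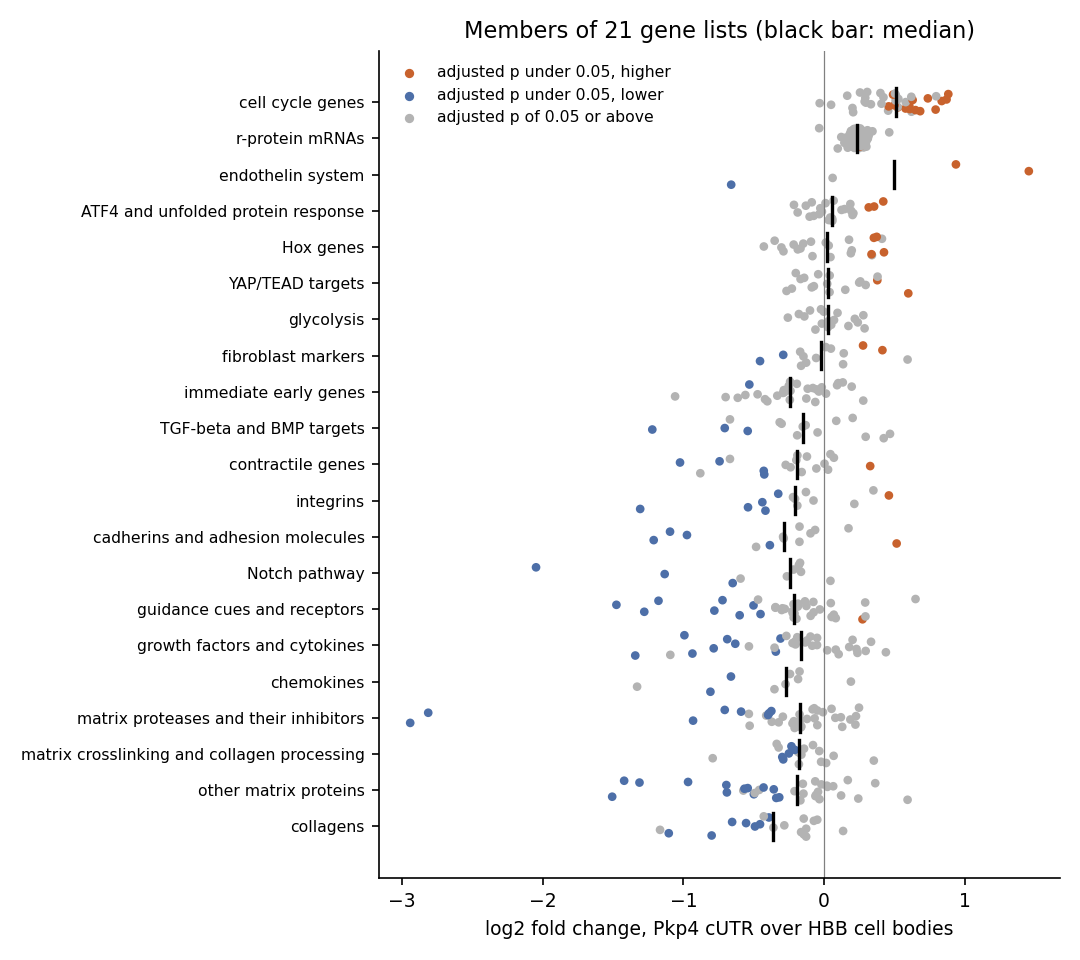
Log2 fold change of Pkp4 cUTR over HBB cell bodies for each tested member of 21 gene lists, 1 point per RNA, with members higher in orange, lower in blue and not called in grey, and the median of each list as a black bar. Pkp4 and Adipoq belong to no list drawn here. The medians run from 0.51 for cell cycle genes to -0.36 for collagens.

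Contractile, integrin and adhesion genes link cells to the matrix. Of 18 contractile genes 4 (22.2%) were lower (8 with the block) and 1 higher, against 5.55% lower and 3.42% higher over all RNAs (11.9% and 10.6% with the block), with a median of -0.19. Myl9, the regulatory light chain of nonmuscle and smooth muscle myosin, was at 4.76, 4.80, 5.02 and 4.90 log2 CPM in HBB and 3.83, 3.77, 3.86 and 3.94 log2 CPM in Pkp4 cUTR (log2 difference -1.02, SE 0.10, adjusted p = 2.48e-06), with no overlap. Mylk (-0.74), the kinase that phosphorylates it, Actn4 (-0.43), which crosslinks actin, and Acta2 (-0.43, adjusted p = 0.0312, or 0.0533 without replicate 4), the smooth muscle actin, were lower. The member that was higher was Myh10 (0.33), a nonmuscle myosin heavy chain, named after its values were seen (0 of the list were higher with any 1 library other than HBB replicate 1 or Pkp4 cUTR replicate 4 left out). Of 13 integrins 5 (38.5%) were lower (8 with the block, and 3 without HBB replicate 1, HBB replicate 3 or Pkp4 cUTR replicate 1), among them Itga3 (-0.54), Itga10 (-0.42) and Itgb5 (-0.33). Itgb4, the integrin of hemidesmosomes, was higher (0.46), but 0 integrins were higher without HBB replicate 1 or HBB replicate 2. Of 13 cadherins and adhesion molecules 4 (30.8%) were lower (7 with the block, and 2 without HBB replicate 3, Pkp4 cUTR replicate 1 or Pkp4 cUTR replicate 4), among them the nectin Pvrl1 (-1.10), the hyaluronan receptor Cd44 (-0.39) and the endothelial cadherin Cdh5 (-1.21, at a mean of -0.86 log2 CPM). Cdh5 differed by -0.16 in protrusions (adjusted p = 0.878 by limma). Cdh1, the epithelial cadherin, was higher (0.52), though by 0.32 in protrusions (adjusted p = 0.254 by limma). It was the 1 higher of its list, and 0 were higher without HBB replicate 1, 2 or 3 or Pkp4 cUTR replicate 3. Krt14, another epithelial gene, was higher too, at 7.32, 7.16, 7.29 and 7.31 log2 CPM in HBB and 8.05, 7.95, 7.70 and 7.83 log2 CPM in Pkp4 cUTR, while the muscle intermediate filament Des was lower (-0.71). Krt14, Cdh1, Des and Cdh5 are the called members of the 7 markers of other cell types, whose sum without Krt14 was 48.5 to 54.2 CPM in HBB and 35.9 to 38.7 CPM in Pkp4 cUTR, and their part in the other differences was not tested.

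Of 31 members of the MARCKS family and actin regulators 1 (3.23%) was higher and 3 (9.68%) lower, against 3.42% and 5.55% over all RNAs. With the block 1 was higher and 3 lower, against 10.6% and 11.9% over all RNAs. Marcks was the 1 higher, and Fscn1 (-0.54), which bundles actin in filopodia, Tmsb4x (-0.49), which sequesters actin monomers, and Pdlim7 (-0.22) were lower. Without HBB replicate 1 or 4 or Pkp4 cUTR replicate 2 or 3, 1 was lower. The median of the list was -0.03. Of 36 semaphorins, netrins, slits, ephrins and their receptors 8 (22.2%) were lower and 1 higher (19 and 2 with the block), against 5.55% and 3.42% over all RNAs (11.9% and 10.6% with the block), with a median of -0.21. Nrp1, the receptor neuropilin 1, was at 3.21, 3.04, 2.93 and 2.78 log2 CPM in HBB and 2.03, 1.87, 1.37 and 1.62 log2 CPM in Pkp4 cUTR (log2 difference -1.28, SE 0.17, adjusted p = 5.03e-05), and Sema7a (-1.18), Slit2 (-0.72) and Sema3f (-0.50) were lower too.

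Among secreted signals, of 32 growth factors and cytokines 8 (25.0%) were lower and 0 higher (13 and 1 with the block), against 5.55% and 3.42% over all RNAs (11.9% and 10.6% with the block), with a median of -0.16. Angptl4, a regulator of lipoprotein lipase, was at 9.50, 9.53, 9.54 and 9.62 log2 CPM in HBB and 8.66, 8.63, 8.56 and 8.60 log2 CPM in Pkp4 cUTR (log2 difference -0.94, SE 0.08, adjusted p = 7.63e-07). Wisp2 (-0.99), of the CCN family, Fgf7 (-0.78), a growth factor for epithelia, and Lif (-0.63) were lower. Of 9 chemokines 2 (22.2%) were lower (5 with the block), the monocyte attractant Ccl2 (-0.81) and Cx3cl1 (-0.66). Of 30 growth factor receptors 1 (3.33%, close to the share over all RNAs, and 0 to 2 with any 1 library left out) was higher, S1pr3 (0.48), a receptor for sphingosine 1-phosphate, and 0 were lower (10 with the block). In the Notch pathway 3 of 10 were lower (5 with the block, and 1 without Pkp4 cUTR replicate 4), the target Hes1 (-0.65), and, both under 0 log2 CPM, Notch3 (-2.05) and Mfng (-1.13, adjusted p = 0.0318, or 0.0935 without replicate 4). Of 15 targets of TGF-beta and BMP 3 were lower and 0 higher (4 and 3 with the block), among them Pmepa1 (-1.22), which dampens TGF-beta signalling, and Ltbp2 (-0.54). Of 30 immediate early genes, which answer serum and lysophosphatidic acid within minutes, Nr4a1 (-0.53) alone was lower by limma, which is 3.33% of the list, 0 were called without replicate 4 or without HBB replicate 1, Pkp4 cUTR replicate 1 or Pkp4 cUTR replicate 4, 11 were lower and 1 higher with the block, and the median was -0.24.

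The mRNAs of ribosomal proteins (r-proteins) differed by little and nearly all in 1 direction. Of 79, 78 had a difference above 0, with a median of 0.23, but 1 was called, Rpl15 (0.26), and 7 without Pkp4 cUTR replicate 3. The median relative level of the list was -0.13, -0.20, -0.13 and 0.01 in the HBB libraries. It was 0.23, -0.01, -0.09 and 0.33 in the Pkp4 cUTR libraries. HBB replicate 4 thus lay above Pkp4 cUTR replicates 2 and 3. With the replicate block 60 of 79 were higher, against 10.6% of all RNAs, and after GC centring 0 were called with a median of 0.24. Many of these genes have processed pseudogenes that can share their reads.

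Other lists held few calls, which are read against 3.42% higher and 5.55% lower over all RNAs (10.6% and 11.9% with the block). Of 25 genes of ATF4 and the unfolded protein response 3 were higher and 0 lower, the serine synthesis enzymes Psat1 (0.35) and Phgdh (0.32) and the pseudokinase Trib3 (0.42). Of 22 Hox genes 4 were higher, Hoxd9 (0.37), Hoxa5 (0.42), Hoxd8 (0.35) and Hoxa3 (0.34). Among 15 NRF2 targets Nqo1 and Gclm (0.28) were higher, and the detoxifying enzyme Gstm1 (-0.61), Osgin1 (-0.52) and Gstm2 (-0.22, named after its values were seen) were lower. Of 32 interferon response genes 4 (12.5%) were lower (7 with the block, 2 without replicate 4, 1 after GC centring, and 2 without HBB replicate 1 or HBB replicate 3), among them Bst2 (-0.63), H2-K1 (-0.31) and H2-D1 (-0.29), and Gbp2 (0.65) was higher. Without replicate 4 the adjusted p was 0.0504 for H2-D1 and 0.0767 for Gbp2. Of 18 YAP/TEAD targets Amotl2 (0.60) and Fjx1 (0.38) were higher (6 higher and 2 lower with the block, and 0 called without HBB replicate 3, HBB replicate 4, Pkp4 cUTR replicate 2 or Pkp4 cUTR replicate 3). Of 24 genes of cholesterol synthesis and uptake Fdft1 (0.34) was higher, and Dhcr7 (-0.38) and Hsd17b7 (-0.40) were lower (7 and 2 with the block). Of 17 p53 targets Bbc3 (0.29) was higher, and of 10 imprinted genes Slc22a18 (-0.83) was lower. With any 1 library left out, 2 to 4 Hox genes, 1 or 2 NRF2 targets and 0 or 1 p53 targets were higher, and 1 or 2 cholesterol genes were lower. No member was called by limma among 18 glycolysis genes (3 higher and 2 lower with the block) or 6 Wnt/beta-catenin targets (1 and 1). The same held for 7 nuclear-retained RNAs (1 and 2) and 13 mitochondrially encoded RNAs (0 and 1, and also 0 and 1 without replicate 4). Of 14 fibroblast markers Prrx1 (0.41) and Vim (0.28) were higher, and Col5a1 and Loxl1 lower (3 higher and 3 lower with the block). Without replicate 4, 1 was higher and 0 lower, and the adjusted p by limma was 0.136 for Vim and 0.0700 for Loxl1. The Gstm, H2 and histone genes named here have close copies that can share their reads, which makes their values less certain.

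RNAs whose place in protrusions needs APC are the class that the Pkp4 3′UTR was used to compete with. The study chose 88 of the tested RNAs as APC-dependent in an APC knockdown experiment on other samples. In cell bodies 2 of them (2.27%) were higher and 5 (5.68%) lower, close to the 3.42% and 5.55% of all RNAs (13 and 6 with the block, against 10.6% and 11.9%, and 1 to 6 and 3 to 6 with any 1 library left out), with a median of 0.06 against 0.00 over all RNAs. Pkp4 itself was 1 of the 2 higher. In protrusions 10 of the 88 were lower and 1 higher, against 4.26% and 2.89% over all RNAs, with a median of -0.14. The cell body values alone do not measure the place of these RNAs. Among those lower in cell bodies were Fgd3 (-0.86), an exchange factor for Cdc42, Myl6b (-0.47), a myosin light chain, and Pde2a (-2.20), a cyclic nucleotide phosphodiesterase at a mean of 0.29 log2 CPM.

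The line difference was also read along the chromosomes, for the 10001 RNAs on the 20 chromosomes with a mean above 1 log2 CPM. For each library and chromosome the score is the median of log2 CPM after each RNA was centred on its mean over the 8 libraries. The scores of the lines did not overlap on 3 of 20 chromosomes, namely 14, 6 and 19. Chromosome 14 differed most. Its scores were -0.07, -0.06, -0.07 and -0.12 in the HBB libraries and 0.09, 0.08, 0.07 and 0.09 in the Pkp4 cUTR libraries. The difference was 0.17 on the log2 scale, which is 1.12-fold (two-sided exact permutation test, p = 0.0286, the smallest that 4 against 4 allows, or 0.176 adjusted over the 20 chromosomes). The difference was 0.06 on chromosome 6 and -0.08 on chromosome 19. Of the 316 RNAs of chromosome 14, 82.3% had a difference above 0, and 44 (13.9%) were higher and 3 lower, against 4.06% higher over all 10001. The 3 lower were Wapal, Clu and Plau, of which Wapal and Clu are named after their values were seen. Windows of 10 Mb were taken where at least 10 RNAs lay in them, which on chromosome 14 left out 0 to 10, 80 to 100 and 110 to 120 Mb. Its 9 windows had medians of 0.13 to 0.20, whereas 37 of all 237 windows were above 0.1. Without the called RNAs the difference was 0.13, and after GC centring it was 0.14. In protrusions the median difference of the same RNAs was 0.14. Glud1, Fdft1, Pbk and Rpl15, described above, lie on chromosome 14. When replicates are paired by number, 4 pairs allow no exact p below 0.125.

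**Figure D4:**
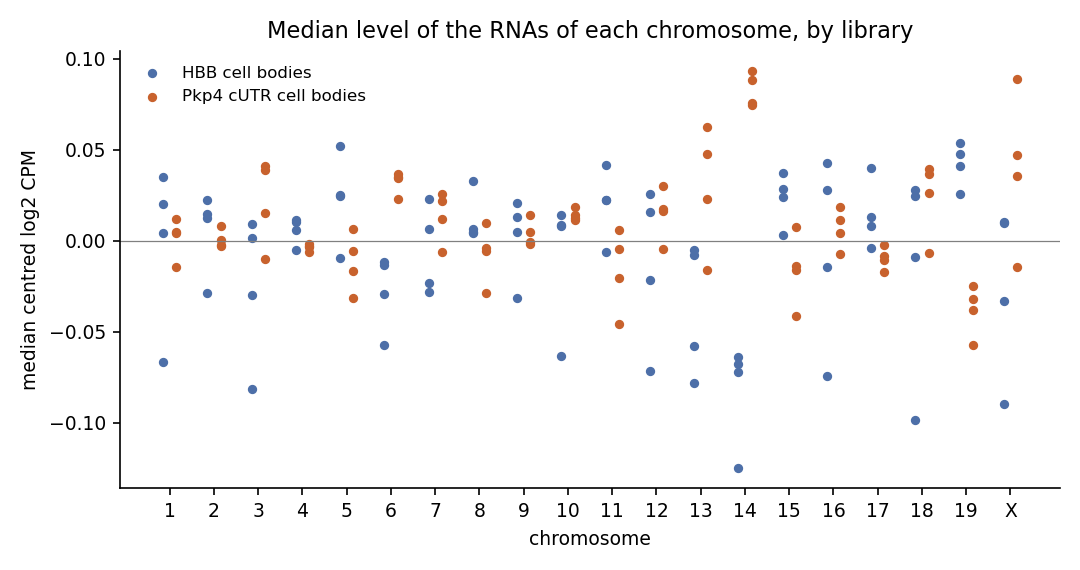
For each chromosome, the median centred log2 CPM of its RNAs in each of the 4 HBB (blue) and 4 Pkp4 cUTR (orange) cell body libraries. On chromosome 14 the HBB libraries sit at -0.12 to -0.06 and the Pkp4 cUTR libraries at 0.07 to 0.09.

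The protrusion difference rests on other libraries than the cell body difference, from the same lines, but both share 1 estimate of the spread. Whether cell body and protrusion libraries of the same line and number vary together was not tested. Neither the fit, its interaction nor the block pairs them, so the fractions cannot be taken as independent. In protrusions 923 RNAs (7.16%) were called, 373 (2.89%) higher and 550 (4.26%) lower. Of the RNAs called in cell bodies 618 were called there too, which is 53.4% of the cell body list and 67.0% of the protrusion list, and all 618 had the same sign. Of all 1157 called in cell bodies 1151 (99.5%) had the same sign in protrusions, against 75.8% of all RNAs. The median differences were 0.41 in cell bodies and 0.36 in protrusions for RNAs higher, and -0.50 and -0.42 for RNAs lower. Over the 1157 RNAs the Pearson correlation of the differences was 0.95, and over all 10065 RNAs with a mean above 1 log2 CPM it was 0.82, as a description, since RNAs are not independent. The cell cycle list had 9 of 39 higher and 0 lower in protrusions, and the collagens 4 of 19 lower and 0 higher.

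Whether the difference between the lines itself differed between the fractions was tested by the interaction in limma. After adjustment 0 RNAs passed 0.05, while 300 (2.33%) were below 0.05 before it. The block on replicate number gave 1 after and 729 before adjustment, and a mean-variance trend in place of the weights gave 0 and 292. Among RNAs called in cell bodies the strongest interaction was that of Eml4, with -1.62 in cell bodies and -0.77 in protrusions (adjusted p of the interaction = 0.9997 by limma). Pkp4 was higher by 4.44 in cell bodies and 3.32 in protrusions (adjusted p of the interaction = 0.9997 by limma). Its protrusion levels were 5.87, 5.76, 6.35 and 6.05 log2 CPM in HBB and 9.80, 9.14, 8.96 and 9.43 log2 CPM in Pkp4 cUTR. In HBB every protrusion library lay above every cell body library, while in Pkp4 cUTR the fractions overlapped. Edn1 differed by 1.40 in protrusions, Marcks by 1.43, Mmp9 by -2.59, Adamts13 by -3.75 and Etl4 by -2.38.

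**Figure D5:**
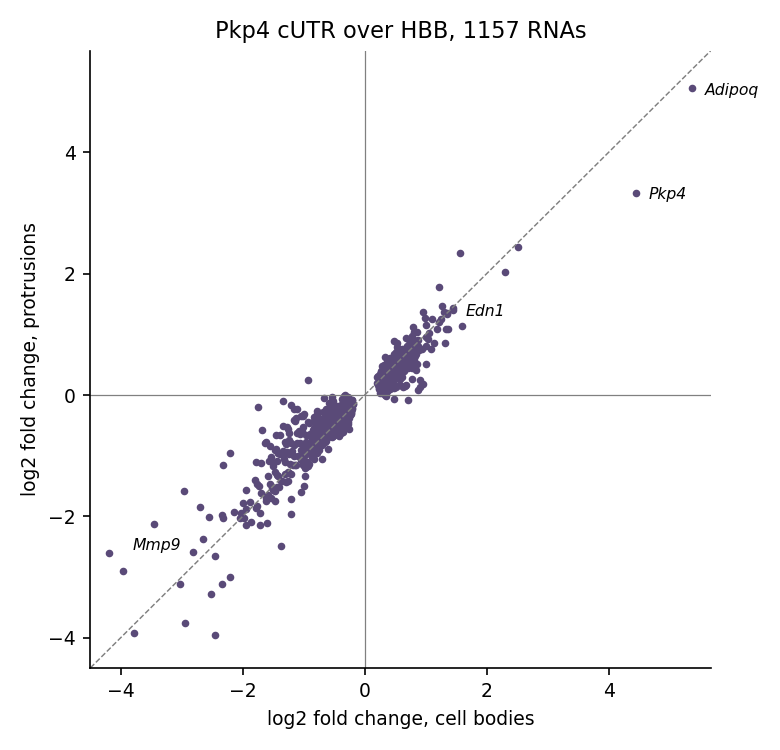
Log2 fold change of Pkp4 cUTR over HBB in cell bodies (horizontal) and in protrusions (vertical) for the 1157 RNAs called in cell bodies, 1 point per RNA, with equal values on the dashed line. All but 6 points lie in the lower left or upper right part of the plot (the position of Adipoq depends on the prior count).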

How the data were processed

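RNA was sequenced from 16 samples, 4 for each line and fraction. Per the labels and the study's methods, the authors made stranded libraries and aligned reads with STAR (2.4.2a, mm10). They counted reads in genes with Rsubread and deposited log2 CPM from limma-voom (limma 3.26.1) for RNAs above 0.5 in at least 1 sample. Whether counting used the strand is not given in the sources used here. Every deposited value gave a whole read within 0.01, so the reads were recovered (20204097 to 31260831 per cell body library, a depth at which RNAs under 1 log2 CPM are the least precise).

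The reads were weighted with voom and fitted in limma 3.58.1 (R 4.3.3) with 4 group means over all 16 samples, which share 1 estimate of the spread, without a block, and p-values were adjusted by Benjamini and Hochberg over all 12900 RNAs. Tests are two-sided. The fit was tested on simulated data. The study describes the replicates as independent. Same-numbered HBB and Pkp4 cUTR cell body libraries correlated in their deviations at 0.34, 0.44, 0.56 and 0.62, so a block on the number was run as an alternative. The main fit and the 4 against 4 permutation test leave this pairing out.

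Named genes are the 6 given with the comparison, the 15 largest rises and falls among called RNAs with a mean above 1 log2 CPM (no predicted genes or pseudogenes), up to 4 called members of each of 37 lists by smallest p, all tested members of the plakophilin, endothelin and globin lists, and the 5 smallest p each way above a mean of 6 log2 CPM. Members and lists were chosen with earlier results of these data known. Positions come from GENCODE vM21 (GRCm38), which matched 12765 RNAs (99.0%), and promoters from RefSeq (GRCm38.p6). Alternatives were other normalizations and weights, filters on low values, log2(CPM + 1), thresholds, the 8 cell body samples alone, the block, each library and replicate 4 of both lines left out, and, chosen after seeing the data, GC centring. Some results on items withheld from this text are not reported here.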

Additional observations from a re-analysis of the deposited data

Results flagged for a closer look

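In each line the named genes were searched for a cell body library whose gap to the nearest of the other 3, as a share of the whole range, passed the 95% critical value of the Dixon test. Of 260 groups 8 met this, in 7 genes, whereas chance gives about 1 in 20 groups. Only 2 of the 8 are libraries of replicate 4. In Pkp4 cUTR, replicate 4 was highest for Marcks at 2.42 log2 CPM, with the others at 1.76 to 1.84, and lowest for Nrxn2 at -0.021 log2 CPM, with the others at 0.46 to 0.54. Replicate 3 of Pkp4 cUTR was lowest for Hba-a1 at 0.046 log2 CPM (others 0.40 to 0.44) and for Fdft1 at 6.84 log2 CPM (others 6.97 to 6.98). Replicate 3 was highest for Fgd3 in both lines, at 5.91 log2 CPM in HBB (others 5.56 to 5.59) and 5.21 log2 CPM in Pkp4 cUTR (others 4.65 to 4.69). In HBB, replicate 1 was lowest for Rrm2 at 1.04 log2 CPM (others 1.36 to 1.40), and replicate 2 was lowest for Cebpd at 3.70 log2 CPM (others 3.94 to 3.97).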

How the results depend on the processing

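Of 130 named genes 121 were called, 87 of them under each of the alternatives run, and none of the 121 changed sign. Most were named because they were called, so the share called follows from that choice and does not speak for other RNAs. The replicate block raised the counts most, to 1367 higher and 1533 lower with 1 RNA in the interaction, to 1490 and 1677 in the 8 cell body samples alone, and to 1330 and 1431 with 1 in the interaction when joined to GC centring. The 8 cell body samples without the block gave 262 higher, and leaving out replicate 4 gave 258. With single libraries left out, 238 to 487 RNAs were higher and 453 to 764 lower, 21 to 30 and 105 to 136 by more than 2-fold, and the interaction called 0. An adjusted p under 0.01 gave 150 higher and 353 lower, with 87 more than 2-fold lower. The 2-fold counts rest on RNAs with few reads: they were 6 higher and 37 lower with log2(CPM + 1), 11 and 40 above a mean of 0.5 log2 CPM, and 14 and 60 above 0.5 in at least 4 samples. A fold above 1.5 gave 121 and 288. Chromosomes whose scores did not overlap numbered 3 to 9 with single libraries left out (5 without HBB replicate 2, 7 without HBB replicate 4 and 9 without Pkp4 cUTR replicate 3), 10 after GC centring and 12 by sign within pairs, and chromosome 14 was among them each time. Pkp3 changed sign to 0.03 after GC centring, 0.067 with the block and GC centring, and 0.00047 without HBB replicate 1, and it ranged from -0.200 to 0.140 with single libraries left out. Hba-a1 changed sign to 0.0058, 0.0081 and 0.027 without HBB replicate 1, HBB replicate 4 and Pkp4 cUTR replicate 3, within a range of -0.25 to 0.027. The cause of these changes was not tested. Depth limits RNAs under 1 log2 CPM, which rest on few reads.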

Other observations

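Some RNAs with a mean under 1 log2 CPM also differed by much, and the ones given here were chosen after their values were seen. Serpinb8, an intracellular serine protease inhibitor, was higher by 2.52 on the log2 scale (adjusted p = 1.03e-06 by limma) and by 2.44 in protrusions. Ucma, a cartilage matrix protein, was higher by 2.29 (adjusted p = 7.62e-06). Among those lower were Plch2, a phospholipase C, with a difference of -3.96 (adjusted p = 1.33e-08) in cell bodies and -2.90 in protrusions, and Gfap, the intermediate filament of astrocytes, with -3.46 and -2.12. Lcp1, the leukocyte actin bundler plastin 2, differed by -1.76, Megf10, a phagocytic receptor, by -2.02, and Casp4, an inflammatory caspase, by -2.34. Folds of RNAs at these levels depend on the prior count.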
